A study of Mus musculus with 4 samples.

Results

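Basement membrane genes were described in cells of the mouse left ventricle. The set held 10 genes of the 31253 in the count tables, namely Col4a1, Col4a2, Lama4, Lamb1, Lamc1, Nid1, Nid2, Hspg2, Sparc and Col15a1. They were chosen by name, as the main components of the sheet around microvessels, with earlier results of these data known. Each was found once in the tables. The study compared mouse hearts with and without a 2-hit model of HFpEF, heart failure in which the ejection fraction is preserved, and asked what loss of the scavenger receptor SR-B1 (Scarb1) from the endothelium does there. All mice carried R26-stop-tdTomato, Cdh5-CreER and at least 1 floxed Scarb1 allele. The floxed line was made on C57BL/6N. After tamoxifen at 7 weeks of age, cells in which the Cdh5 promoter had driven Cre were red fluorescent (RFP), and RFP-positive left ventricular cells were sorted and sequenced with the 10x Genomics 3′ assay, which counts molecules by unique molecular identifiers (UMIs). NC mice (2 libraries) received Chow, in which fat gave 10% of the calories according to the methods. HFpEF mice (2 libraries) received a diet in which fat gave 60%, with 0.5 mg/ml of the nitric oxide synthase inhibitor L-NAME in drinking water, for 20 weeks. The design names Sfl/fl/RΔEC and Sfl/+/RΔEC mice in each diet. The labels give the diet of each library but not its Scarb1 genotype, so genotype may vary within each pair of libraries, and the number of mice per library is not stated. P-values therefore measure the spread between these libraries only.

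The basement membrane is a thin sheet of protein under the endothelium of most vessels. Laminin trimers, each of an alpha, a beta and a gamma chain, assemble on the cell surface, and a network of type IV collagen trimers forms beside them. Nidogens and the heparan sulfate proteoglycan perlecan link both networks. In capillaries the sheet is shared by endothelial cells (ECs) and pericytes, the mural cells wrapped around them, and it is known to thicken around small vessels in diabetes. Col4a1 and Col4a2 encode the chains of the most widespread type IV collagen. Lama4, Lamb1 and Lamc1 encode the chains of laminin-411, the typical laminin of vascular endothelium. Nid1 and Nid2 encode the nidogens and Hspg2 encodes perlecan. Sparc encodes a collagen-binding matricellular protein needed for orderly collagen deposition, and Col15a1 encodes a collagen at the outer face of the basement membrane, next to the fibrillar matrix.

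The genes lie apart on the genome, except for one pair. Col4a1 (chr8:11198423-11312826, minus strand) and Col4a2 (chr8:11312805-11449287, plus strand) stand head to head in GRCm38, and their annotated starts overlap by 22 bases. The laminin genes are Lama4 (chr10:38965515-39110188, plus), Lamb1 (chr12:31265234-31329644, plus) and Lamc1 (chr1:153218922-153332786, minus). Nid1 lies at chr13:13437551-13512269 (plus) and Nid2 at chr14:19751265-19811787 (plus). Hspg2 (chr4:137468769-137570630, plus) and Col15a1 (chr4:47208161-47313167, plus) lie far apart on one chromosome, and Sparc lies at chr11:55394500-55423183 (minus). These spans are whole genes of GENCODE vM21, and the UMIs of the assay come mostly from their 3′ ends. Nid2 overlaps Rtraf on the opposite strand, and whether the counting used strand is not given in the sources used here. RefSeq start regions of 300 bases (GRCm38.p6) were found for 7 of the genes. The regions of 3 genes with different cell type patterns are shown from 250 bases before the start to the last base before the first annotated exon, all 5′ to 3′ on the plus strand. Capitals mark GC boxes (GGGCGG or CCGCCC) and CCAAT boxes (CCAAT or ATTGG). Hspg2 lies at chr4:137468553-137468768, Lamb1 at chr12:31265043-31265233 and Nid1 at chr13:13437352-13437550.
Hspg2: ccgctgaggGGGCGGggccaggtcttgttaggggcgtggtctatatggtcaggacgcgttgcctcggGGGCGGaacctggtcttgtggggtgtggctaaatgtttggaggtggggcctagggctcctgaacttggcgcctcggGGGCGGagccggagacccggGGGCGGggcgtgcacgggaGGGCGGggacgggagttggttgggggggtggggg
Lamb1: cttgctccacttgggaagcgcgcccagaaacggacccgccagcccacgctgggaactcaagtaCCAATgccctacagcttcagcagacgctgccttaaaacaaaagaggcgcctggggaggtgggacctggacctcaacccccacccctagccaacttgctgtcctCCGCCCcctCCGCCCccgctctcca
Nid1: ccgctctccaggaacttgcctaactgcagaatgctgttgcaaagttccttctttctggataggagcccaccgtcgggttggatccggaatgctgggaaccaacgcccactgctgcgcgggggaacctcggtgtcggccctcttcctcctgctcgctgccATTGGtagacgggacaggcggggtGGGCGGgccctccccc
The Hspg2 stretch held 5 GC boxes and no CCAAT box, the Lamb1 stretch 2 GC boxes and 1 CCAAT box, and the Nid1 stretch 1 of each. Over the full 300 bases, Col4a1 had 1 GC box and 1 CCAAT box, Col4a2 had 3 and 1, and Sparc and Col15a1 had neither. A TATA box (TATAAA or TTTATA) was in none of the 7. Among 32817 RefSeq start regions of the same length, 35.6% held a GC box, 37.4% a CCAAT box and 13.6% a TATA box. These matches describe letters only.

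The libraries differed in depth. They held 7465 and 6924 cells (NC) and 5769 and 21685 cells (HFpEF), with median UMIs per cell of 3644 and 4035.5 in NC and 1699 and 1577 in HFpEF. After the authors' filter (over 200 genes, under 20% mitochondrial UMIs), 40154 of 41843 cells were left, and 39829 after cells with 1% or more hemoglobin UMIs were removed as well. Between 64 and 125 cell barcodes of a library also occurred in another one. Cells were put into classes in 2 ways, by clusters named from marker genes, with the basement membrane genes kept out of the clustering, and by gating each cell on its own marker UMIs. The clusters gave 21835 capillary ECs, 4092 artery ECs, 1240 vein ECs, 1546 mural cells and 129 fibroblasts. The gate gave 21720, 4883, 253, 1327 and 108 cells of these classes. Another 10212 cells, most of them shallow, stayed without a class, at 13.5% and 12.7% of NC cells and 33.6% and 31.9% of HFpEF cells, and these shares rest on thresholds set after the data were seen. Levels are given in CPM, the UMIs of a gene scaled to 1e+06 UMIs of the class in a library.

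Both ways of making classes differed in the cells they took. Of the 21720 gated capillary ECs, 14063 were in capillary clusters and 7122 in clusters without a class. Of the 4883 gated artery ECs, 2693 were in artery clusters and 1817 in capillary clusters. The gate counts detected markers, and median UMIs were 1871 in gated capillary ECs and 3382 in gated artery ECs. The part of depth in the class differences was not tested. Of the 1240 cells of vein clusters, 220 passed the vein gate, 212 the capillary gate and 794 no gate. For mural cells 1295 and for fibroblasts 106 cells were shared. The sort was for RFP of endothelial origin. The paper saw no RFP in cardiac fibroblasts of control mice. It also detected no RFP-positive cells that lacked the protein of Pecam1 in HFpEF hearts. How mural cells and fibroblasts came into the libraries was not tested, so they may not represent these cell types in the heart. Summed over Cdh5, Pecam1, Kdr, Tie1 and Ptprb, endothelial markers of the clusters stood at 4164 to 4848 CPM in capillary ECs, at 404 to 1093 CPM in fibroblasts and at 2385 to 2948 CPM in mural cells. In gated cells they stood at 4212 to 4719 CPM, 33.6 to 528 CPM and 2239 to 2788 CPM. All 5 markers were detected in mural cells of every library. In clusters the 8 pericyte markers summed to 11150 to 13231 CPM in mural cells and to 108 to 195 CPM in capillary ECs. The 7 fibroblast markers summed to 18010 to 30874 CPM in fibroblasts. The mural class joins cells with pericyte or smooth muscle markers, which were not separated. The 5 smooth muscle markers summed to 2933 to 4209 CPM in it, so its values are not those of pericytes alone. No doublets were removed here. Because of this endothelial RNA, levels in mural cells and fibroblasts were also computed in cells without a single UMI of the 5 endothelial markers. These were 256 of 1546 mural cells (16.6%, median 1475.5 UMIs against 3507 in all mural cells) and 85 of 129 fibroblasts in clusters, and 238 of 1327 mural cells (17.9%, median 1587 against 3822 UMIs) and 73 of 108 fibroblasts in gated cells.

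Capillary ECs had higher levels of most basement membrane genes than artery and vein ECs. Proliferating, lymphatic and endocardial ECs had no gate and were not tested, and in clusters proliferating ECs had higher means than capillary ECs for 9 of the 10 genes. In cells gated one by one, 9 of the 10 genes were lower in artery ECs and none was higher. Against vein ECs, 7 were lower in veins, and against mural cells, 8 were lower in mural cells, again with none higher. Fibroblasts stood apart, with 5 genes above capillary ECs and 2 below. These counts come from edgeR's quasi-likelihood test on 4 libraries with the library as a block and an adjusted p under 0.05. The test estimates the spread of a gene together with that of all genes tested. A very small p therefore does not rest on the 4 libraries' values of that gene alone. Over all genes tested, 14.7% were called lower and 15.7% higher in artery ECs, 6.00% lower and 6.27% higher in vein ECs, 22.8% lower and 24.4% higher in mural cells, and 15.3% lower and 11.0% higher in fibroblasts. The median log2 difference of the 10 genes was -0.34 for artery, -0.96 for vein and -1.01 for mural cells, and 0.94 for fibroblasts. The medians of all genes were -0.01, -0.05, -0.01 and -0.22. With classes from clusters, the medians of the 10 genes were -0.55, -0.73, -1.005 and 0.85 in the same order. There 9, 7, 9 and 7 of the genes were called in either direction. Over all genes tested with these classes, 3646 of 10866, 2714 of 10426, 5145 of 11047 and 2619 of 10227 were called.

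**Figure D1:**
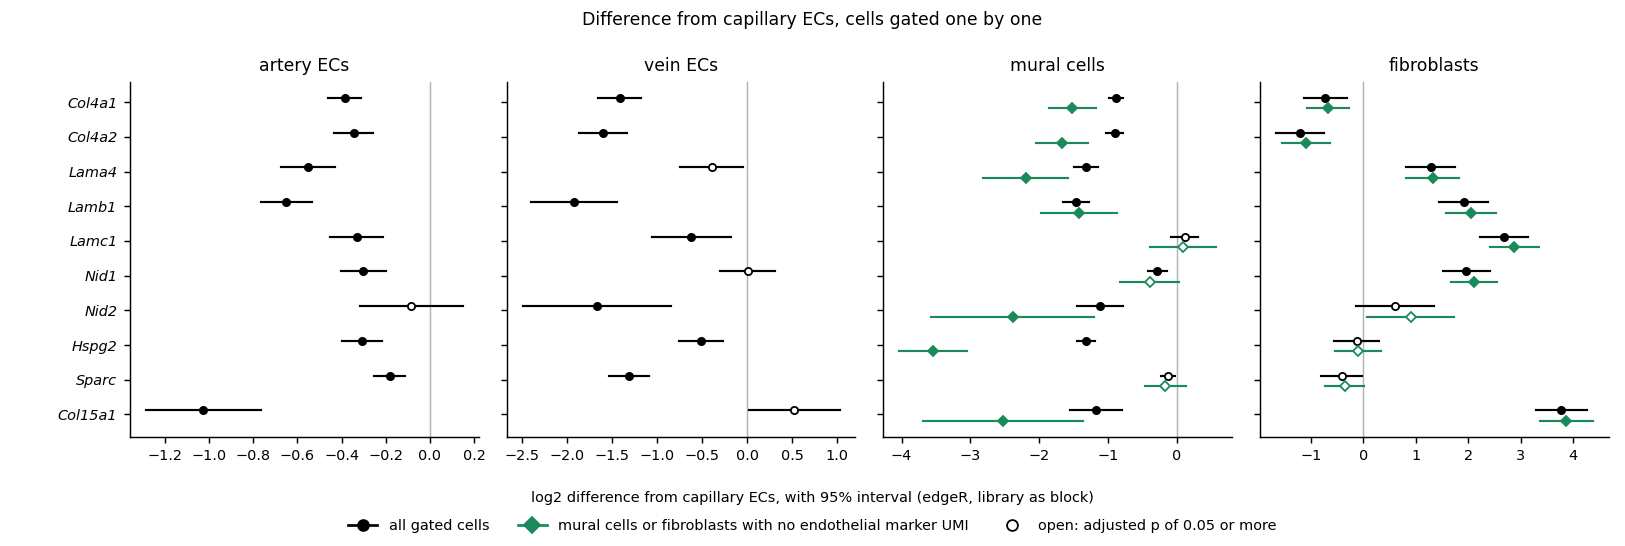
Log2 difference of each basement membrane gene from capillary ECs, by cell class, in cells gated one by one. Points are edgeR estimates and bars 95% intervals over 4 libraries, open symbols have an adjusted p of 0.05 or more, and green diamonds show mural cells and fibroblasts without endothelial marker UMIs. In artery ECs the points lie at or left of 0, with Col15a1 lowest at -1.03, and in fibroblasts Col15a1 and Lamc1 lie far to the right at 3.78 and 2.69.

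Of the 5 gated classes, capillary ECs had the highest mean of both type IV collagen chains. Gated capillary ECs had 1136 ± 183 CPM of Col4a1 (mean ± SD, n = 4 libraries), followed by artery ECs with 909 ± 172, fibroblasts with 833 ± 292, mural cells with 684.5 ± 102 and vein ECs with 447 ± 90.0 CPM. In vein ECs the libraries read 473 and 489 CPM in NC, against 314.5 and 513 CPM in HFpEF, all far below the capillary values, and the log2 difference was -1.41 ± 0.12 (SE, adjusted p = 1.8e-29, edgeR). Artery ECs were lower than capillary ECs in each library, with a log2 difference of -0.39 ± 0.04 (adjusted p = 4.3e-08). Col4a2 had the same order at both ends, from 619 ± 126 CPM in capillary ECs to 210.1 ± 67.8 in vein ECs, where its log2 difference was -1.60 ± 0.14 (adjusted p = 1.9e-29). In mural cells both chains were lower by the same amount, -0.88 ± 0.05 for Col4a1 and -0.90 ± 0.06 for Col4a2. In fibroblasts Col4a2 was lower by more (-1.21 ± 0.24) than Col4a1 (-0.73 ± 0.21), a gap that was not tested. The ranges of artery ECs, fibroblasts and mural cells overlapped for both chains.

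The ratio of the UMIs of both chains had overlapping ranges across the EC classes, here taken from clusters. The assay counts 3′ ends, so gene length does not enter, but capture may differ between the genes and the ratio is compared between cell classes only. In capillary ECs the ratio of Col4a1 to Col4a2 UMIs was 1.85 and 1.78 in NC and 2.05 and 1.77 in HFpEF libraries. Its mean was 1.87 ± 0.13 (SD, n = 4) in capillary, 1.82 ± 0.10 in artery and 2.08 ± 0.24 in vein ECs, 1.83 ± 0.05 in mural cells and 2.45 ± 0.43 in fibroblasts. Vein ECs of HFpEF library 1 reached 2.43, and fibroblasts ranged from 1.83 to 2.79. Lymphatic ECs ranged from 1.55 to 2.53 and endocardial ECs from 1.54 to 2.25, on few UMIs.

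The laminin chains did not share one pattern. Lamb1, the beta chain, had the largest differences of the 3 chains among vessel cells, at 111 ± 25.1 CPM in capillary, 72.3 ± 20.9 in artery and 34.6 ± 8.67 in vein ECs and 44.8 ± 9.46 in mural cells. The log2 difference was -1.92 ± 0.24 for veins (adjusted p = 8.6e-14), -1.46 ± 0.09 for mural cells and -0.65 ± 0.05 for arteries. Lama4, the alpha chain of vascular laminin, was lower in artery ECs (-0.55 ± 0.06, adjusted p = 2.7e-07) and in mural cells (-1.32 ± 0.08, adjusted p = 2.0e-11). Its vein value of -0.39 ± 0.18 was not called (adjusted p = 0.16), and the vein libraries, at 123 and 76.3 CPM in NC, against 129 and 82.6 CPM in HFpEF, overlapped the capillary range of 109.7 to 129 CPM. Lamc1, the gamma chain found in most laminins, had 76.7 ± 2.26 CPM in capillary ECs, 63.9 ± 5.51 in artery ECs and 95.9 ± 19.4 in mural cells. The difference of mural cells was not called (log2 difference 0.12, 95% interval -0.08 to 0.31, adjusted p = 0.32). Its vein difference of -0.62 (adjusted p = 0.047) was no longer called without NC library 1 (-0.46, adjusted p = 0.40), without NC library 2 (-0.69, adjusted p = 0.074) or without HFpEF library 2 (-0.69, adjusted p = 0.14).

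Fibroblasts had more of all 3 laminin chains than capillary ECs. Lamc1 reached 565 and 680.2 CPM in NC, against 505 and 569 CPM in HFpEF fibroblasts, against 74.8 to 79.7 CPM in capillary ECs, and no library overlapped. The log2 difference was 2.69 ± 0.23 (adjusted p = 8.4e-29). Lamb1 had 498 and 697 CPM in NC, against 295 and 483 CPM in HFpEF fibroblasts, with a difference of 1.91 ± 0.24 (adjusted p = 1.0e-14). Lama4 had 377 and 479 CPM in NC, against 232 and 289 CPM in HFpEF fibroblasts, with a difference of 1.28 ± 0.24 (adjusted p = 8.0e-07). The fibroblasts numbered 8, 18, 15 and 67 cells per library, so a value such as Lama4 in HFpEF library 1 rests on 11 UMIs.

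The nidogens also parted from each other. Nid1 was even across vessel cells, with 155 ± 11.0 CPM in capillary, 132 ± 12.1 in artery and 162 ± 34.9 in vein ECs and 142 ± 1.78 in mural cells. The artery difference was -0.30 ± 0.05 (adjusted p = 5.8e-05) and the mural difference -0.28 ± 0.07 (adjusted p = 0.0018), while the vein difference was 0.01 (95% interval -0.30 to 0.31, adjusted p = 0.99). Fibroblasts had 565 and 924 CPM of Nid1 in NC, against 779 and 631 CPM in HFpEF, above every vessel value, and differed by 1.96 ± 0.23 (adjusted p = 1.5e-16). Nid2 was the 1 gene not called between artery and capillary ECs (-0.08, 95% interval -0.32 to 0.15, adjusted p = 0.63). Gated artery ECs held 618 UMIs of Nid2, 13 of them in HFpEF library 1. Nid2 was lower in vein ECs (-1.67 ± 0.42, adjusted p = 0.00096), which held 2, 3, 0 and 5 UMIs in the libraries, where 0 UMIs in HFpEF library 1 allow up to 42.9 CPM. It was also lower in mural cells (-1.12 ± 0.16, adjusted p = 4.7e-06). In fibroblasts Nid2 was not called (0.60, adjusted p = 0.26), with 2 to 15 UMIs per library.

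Perlecan, Sparc and Col15a1 differed in where they were low. Hspg2, which encodes perlecan, had 507 ± 77.5 CPM in capillary, 426 ± 75.7 in artery and 370.1 ± 87.0 in vein ECs and 548 ± 43.4 in fibroblasts. In mural cells it read 237 and 198 CPM in NC, against 181 and 286 CPM in HFpEF, below every capillary value. The mural difference was -1.32 ± 0.06 (adjusted p = 3.3e-13), and the fibroblast difference was -0.13 (95% interval -0.56 to 0.31, adjusted p = 0.74). The artery difference was -0.31 ± 0.04 (adjusted p = 1.1e-05) and the vein difference -0.51 ± 0.13 (adjusted p = 0.00071). Sparc had 1733 ± 204 CPM in capillary ECs and 1760.5 ± 165 CPM in mural cells, with a log2 difference of -0.12 ± 0.05 that was not called (adjusted p = 0.052). It was called, at -0.14 and -0.16 (adjusted p = 0.017 in both), with classes from clusters or without HFpEF library 1. Mean CPM of Sparc was not lower in gated mural cells, and in clusters it was 1747 CPM, against 1763 CPM in capillary ECs. The fits rescale the libraries (TMM) and CPM values do not. The part of this scaling in the signs was not tested, for Sparc or for Hspg2 in fibroblasts. Fibroblasts had 1578 ± 477.5 CPM of Sparc in gated cells, below the capillary mean, and 1928 ± 297 CPM in clusters, above it. Of the 5 gated classes, vein ECs had the least Sparc, at 771 and 857 CPM in NC, against 543 and 780.2 CPM in HFpEF (-1.31 ± 0.11, adjusted p = 1.6e-28). Col15a1 was the gene with the widest range. Fibroblasts had 336.5 and 529 CPM in NC, against 631.5 and 681 CPM in HFpEF, against 26.9 to 39.8 CPM in capillary ECs, a log2 difference of 3.78 ± 0.25 (adjusted p = 1.3e-51). Artery ECs had less (-1.03 ± 0.12) and so had mural cells (-1.17 ± 0.18), where HFpEF library 1 held 1 UMI. The vein value of 0.52 was not called (adjusted p = 0.21), but without NC library 2 it was 0.82 (adjusted p = 0.037).

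Among gated mural cells without endothelial marker UMIs the gap to capillary ECs was wider for some genes and not for others. Hspg2 stood at 22.2 and 42.8 CPM in NC, against 81.5 and 75.9 CPM in HFpEF libraries, and its log2 difference from gated capillary ECs was -1.32 in all gated mural cells and -3.54 ± 0.25 (SE, adjusted p = 6.5e-43) in those without endothelial UMIs. The differences of Lama4 (-2.20), Col15a1 (-2.52), Nid2 (-2.38), Col4a1 (-1.52) and Col4a2 (-1.67) were larger than in all mural cells as well, and that of Lamb1 was -1.42. Nid1 was no longer called (-0.39, adjusted p = 0.17). By contrast, Sparc had 2586 and 1529 CPM in NC, against 1957 and 1758 CPM in HFpEF libraries, and Lamc1 had 144 and 103 CPM in NC, against 65.2 and 81.8 CPM in HFpEF. Their differences were -0.16 (adjusted p = 0.46) and 0.09 (adjusted p = 0.83). Such cells were chosen after the data were seen and were shallower than other mural cells. In library order (NC, then HFpEF) they held 7, 6, 3 and 1 UMIs of Lama4. Nid2 had 1, 0, 2 and 1 UMIs and Col15a1 had 2, 2, 0 and 0. The 0 UMIs of Nid2 in NC library 2 allow up to 12.9 CPM. Those of Col15a1 allow up to 48.9 CPM in HFpEF library 1 and 17.5 CPM in HFpEF library 2. Gated capillary ECs had 26.9 to 39.8 CPM of Col15a1. In fibroblasts the same step changed no call, and Col15a1 (3.87), Lamc1 (2.88), Nid1 (2.11), Lamb1 (2.06) and Lama4 (1.33) remained above capillary ECs.

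Immune cells from the same sort held few of these UMIs when they held no endothelial marker UMI. B cells, T cells, macrophages and neutrophils without endothelial marker UMIs numbered 125 of 344. Col4a1 had 9 UMIs in them in HFpEF library 2 (49.8 CPM) and 0 in the other 3 libraries, and Lama4, Lamb1, Nid2 and Col15a1 had 0 UMIs in all 4 libraries, which allows up to 16.6 CPM in HFpEF library 2. The limits of the smaller libraries were higher, up to 192 CPM in NC library 1 with 3 such cells. B cells as a whole, with 2400 to 2840 CPM of endothelial markers, held 595 to 1004 CPM of Col4a1, while T cells, with 144 to 602 CPM of these markers, held 0 to 41.2 CPM. Thinned to 1000 UMIs per cell, 63.9% of capillary ECs had a Col4a1 UMI (95% exact binomial interval 63.3% to 64.6%, 87.0% before thinning, median 2934 UMIs). In T cells it was 2.04% (0.0517% to 10.9%, 8.16% before thinning, median 2278 UMIs). Sparc was seen in 75.8% of capillary ECs, 78.6% of mural cells, 65.8% of fibroblasts and 8.16% of T cells, and Col15a1 in 2.79%, 1.27% and 32.5% of the first 3. These intervals cover counting error only.

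**Figure D2:**
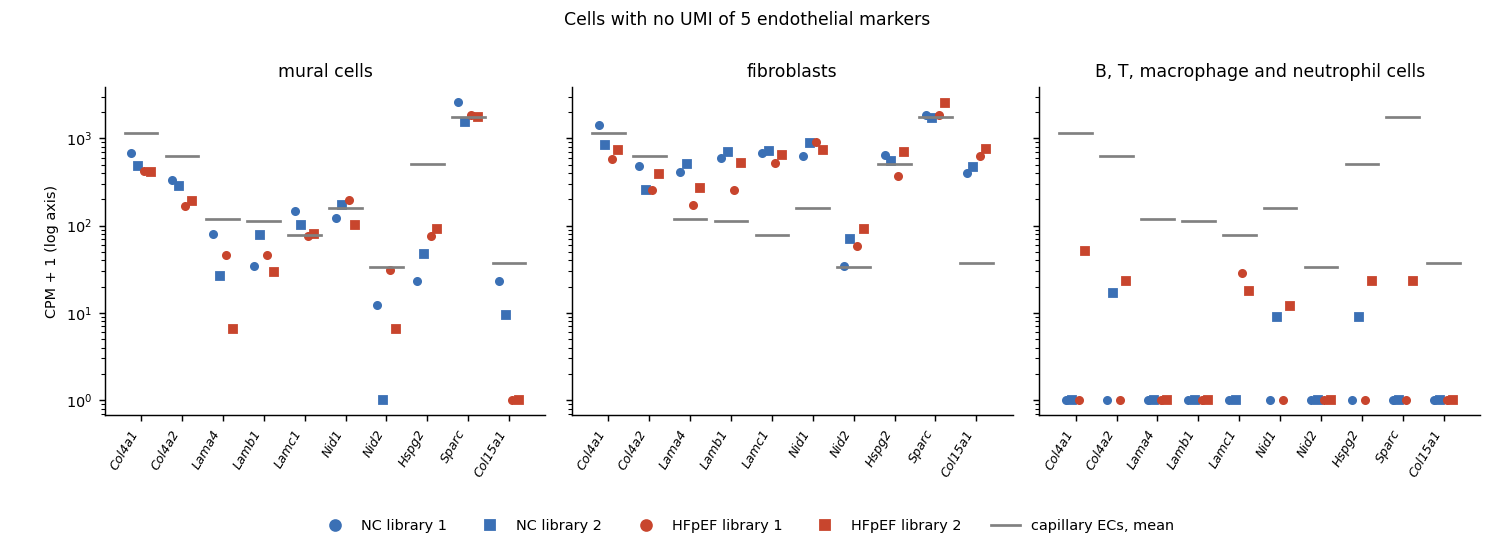
Level (CPM + 1, log axis) of each basement membrane gene in mural cells, fibroblasts and immune cells of clusters without a UMI of 5 endothelial markers, 1 point per library, with the mean of capillary ECs as a grey line. In mural cells the Sparc and Lamc1 points surround the capillary line and the Hspg2 points lie far below it, and most immune points sit at 0 UMIs.

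HFpEF and NC libraries were then compared within each class, on sums over the clusters of the class. No basement membrane gene was called in any of the 5 classes by edgeR's quasi-likelihood test. All 10 genes were tested in each class, except Nid2 in fibroblasts, which had too few UMIs. Over all genes tested, 0.427% were called in capillary ECs, 0.485% in artery ECs, 0.781% in vein ECs, 0.506% in mural cells and 0% in fibroblasts. DESeq2 called none of the 10 genes either. At an unadjusted p under 0.05, 1 of the genes passed in capillary ECs (Nid2), 1 in fibroblasts (Col4a1) and 0 in the other classes. Of all genes tested, 2602 of 12399 passed in capillary ECs, 1207 of 10507 in artery ECs and 974 of 8834 in vein ECs. In mural cells 1024 of 10083 passed, and in fibroblasts 86 of 1895. The median log2 fold change of the 10 genes was 0.08 in capillary ECs, 0.07 in artery ECs, -0.15 in vein ECs and 0.06 in mural cells, against medians of all genes between -0.004 and 0.001. It was -0.25 over the 9 genes tested in fibroblasts.

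**Figure D3:**
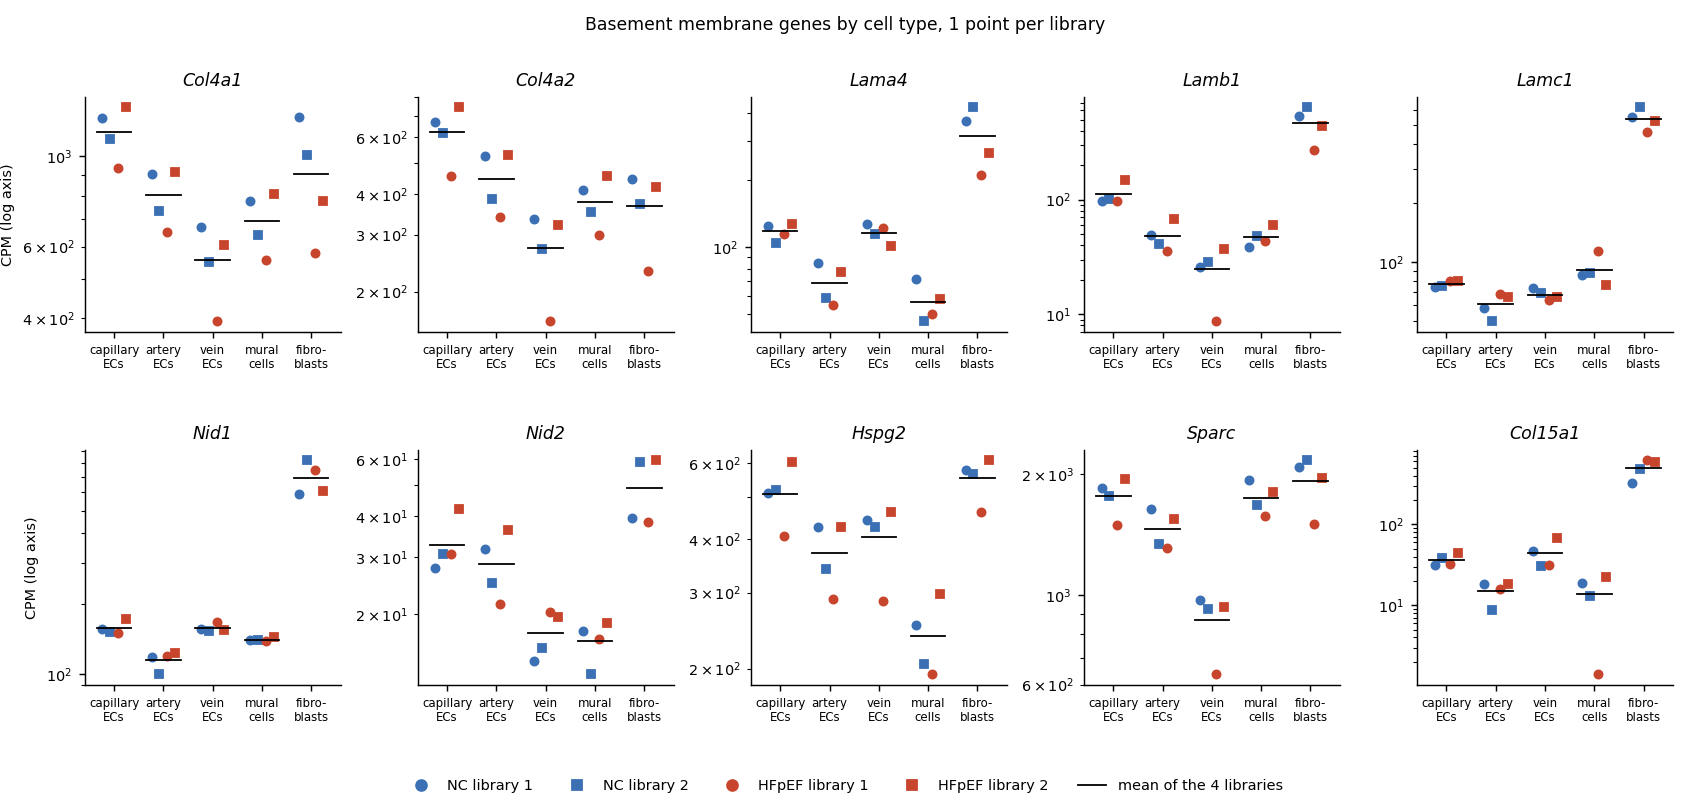
Level (CPM, log axis) of each basement membrane gene in 5 cell classes from clusters, 1 point per library, with the mean of the 4 libraries as a bar. NC (blue) and HFpEF (red) points are mixed in most panels, and fibroblasts stand above the vessel cells for Lama4, Lamb1, Lamc1, Nid1 and Col15a1.

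In capillary ECs the 2 HFpEF libraries stood at the outer ends for many genes. Col4a1 had 1237 and 1102.5 CPM in NC, against 935 and 1316 CPM in HFpEF, so the HFpEF values enclosed those of NC, and the log2 fold change was -0.04 (95% interval -0.42 to 0.34). Col4a2 had 667 and 618 CPM in NC, against 457 and 742 CPM in HFpEF, with the same picture and a fold change of -0.09 (-0.55 to 0.37). For Hspg2 the values were 510.3 and 518 CPM in NC, against 406 and 601 CPM in HFpEF (-0.02, interval -0.40 to 0.37). Sparc read 1851 and 1769 CPM in NC, against 1492 and 1940.5 CPM in HFpEF (-0.07, interval -0.40 to 0.27). For these 4 genes HFpEF library 1 was the lowest and HFpEF library 2 the highest of the libraries. Across the 10 genes, HFpEF library 2 was above HFpEF library 1 in 9, with a median log2 gap of 0.42, against 0.003 for all genes. The NC libraries differed by a median of 0.03 in these genes.

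The laminins and nidogens of capillary ECs moved little more. Lamb1 had 97.7 and 100.8 CPM in NC, against 97.6 and 149.7 CPM in HFpEF, where only library 2 was high, and its fold change was 0.34 (95% interval -0.07 to 0.75, adjusted p = 0.31). It was 0.01 without HFpEF library 2 and 0.59 without HFpEF library 1. Lama4 had 125 and 104.5 CPM in NC, against 115 and 127 CPM in HFpEF, which overlapped (0.09, interval -0.19 to 0.37). Lamc1 had 74.6 and 74.9 CPM in NC, against 80.03 and 79.95 CPM in HFpEF, higher in both HFpEF libraries by a small step (0.11, interval -0.12 to 0.34, adjusted p = 0.56). Nid1 had 156 and 152 CPM in NC, against 150.1 and 172 CPM in HFpEF, with overlap (0.08, interval -0.17 to 0.33). Nid2 had 27.8 and 30.58 CPM in NC, against 30.59 and 42.0 CPM in HFpEF, where HFpEF library 1 equalled NC library 2 and library 2 was higher. Its log2 fold change was 0.36 (interval 0.02 to 0.70, unadjusted p = 0.042, adjusted p = 0.22), and 0.10 without HFpEF library 2. Col15a1 had 31.2 and 38.2 CPM in NC, against 31.9 and 43.8 CPM in HFpEF, which overlapped (0.17, interval -0.20 to 0.53). After normalization, the diets did not overlap for 2 of the 10 genes, Lamc1 and Nid2, while 52.5% of all genes tested did not overlap.

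**Figure D4:**
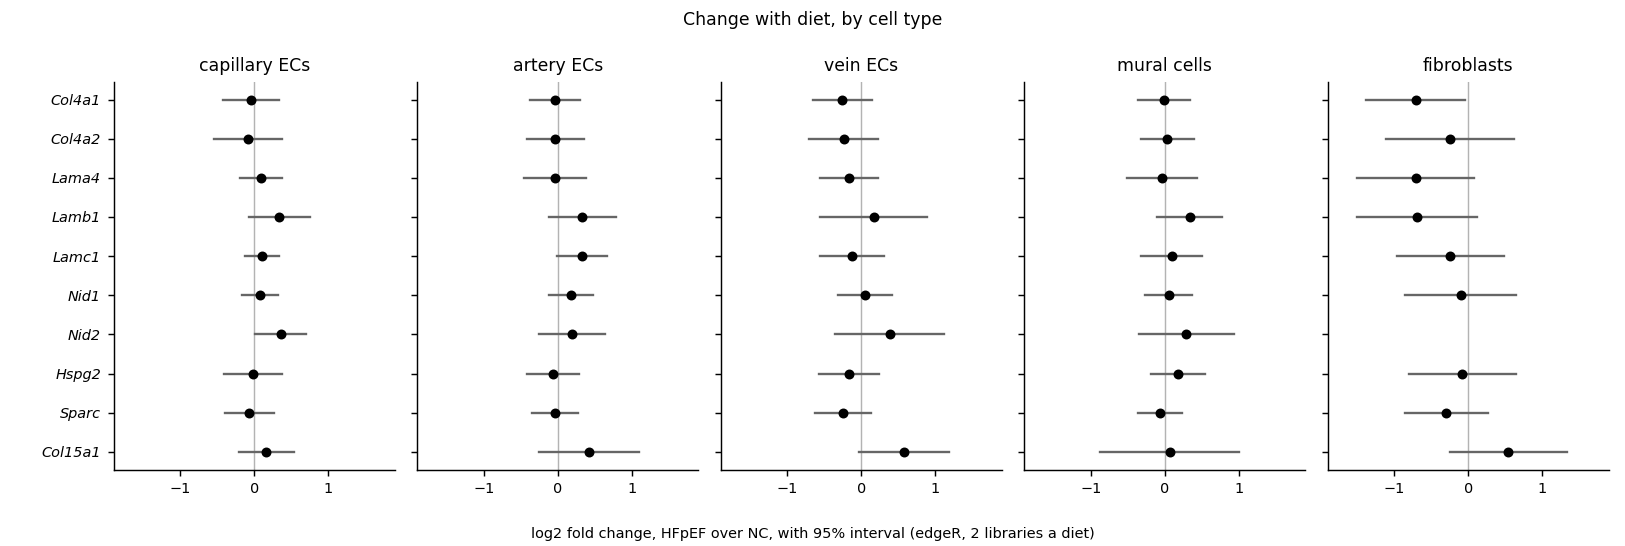
Log2 fold change of each basement membrane gene, HFpEF over NC, by cell class, with 95% intervals from edgeR on 2 libraries a diet (Nid2 was not tested in fibroblasts). The intervals cross 0 in all panels except for Nid2 in capillary ECs and Col4a1 in fibroblasts, and neither has an adjusted p under 0.05.

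The shares of capillary EC subclusters differed between NC and HFpEF libraries, without a test. A subcluster led by the heat shock genes Hspa1b and Hspa1a held 6.53% and 3.85% of NC cells, against 46.5% and 46.9% of HFpEF capillary ECs, and one led by Cyp1a1 and Apoe held 38.7% and 46.2% of NC cells, against 16.2% and 11.6% of HFpEF. Median UMIs were 1490 in the first and 3543 in the second, and the HFpEF libraries were shallower. More of their cells also stayed without a class. The part of depth and of these cells in the shares was not tested. Weighting each of 6 subclusters by its mean share in all libraries changed the log2 difference of Nid2 from 0.29 to 0.08, without normalization and without a test. The difference of Col4a1 was -0.07 before and -0.06 after weighting, that of Lamb1 0.28 and 0.29, and that of Lamc1 0.10 and 0.12. The summed pericyte markers of capillary ECs were 148 and 143 CPM in NC, against 195 and 108 CPM in HFpEF libraries, and the fibroblast markers were 6.12 to 9.53 CPM in all 4 libraries. Their part in the diet values was not tested, and without the cells that held any UMI of these markers again no gene of the 10 was called.

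The other classes gave small and mixed values with diet. In artery ECs the lowest unadjusted p was that of Lamc1, with 58.2 and 49.6 CPM in NC, against 68.1 and 66.1 CPM in HFpEF, both higher (0.33, 95% interval -0.01 to 0.66, adjusted p = 0.45). Lamc1 and Nid1 were the 2 genes whose diets did not overlap in artery ECs, where 42.8% of all genes did not. In vein ECs it was Col15a1, with 46.6 and 30.8 CPM in NC, against 31.8 and 68.7 CPM in HFpEF, which overlapped (0.58, interval -0.03 to 1.19, adjusted p = 0.47). Lamc1, Nid2 and Sparc (3 genes) did not overlap in vein ECs, against 41.8% of all genes. In mural cells Lamb1 had 38.5 and 48.0 CPM in NC, against 43.2 and 59.8 CPM in HFpEF (0.34, interval -0.11 to 0.78, adjusted p = 0.64, and 0.03 without HFpEF library 2), and Nid1 was the 1 gene without overlap, against 41.0% of all genes. As in capillary ECs, HFpEF library 2 was above library 1 in 8 genes of artery ECs, 6 of vein ECs, 9 of mural cells and 7 of fibroblasts. The NC libraries differed too, with NC library 1 above library 2 in 10 genes of artery ECs, 8 of vein ECs, 8 of mural cells and 2 of fibroblasts. The median gap within HFpEF and within NC was 0.44 and 0.31 in artery ECs, 0.51 and 0.08 in vein ECs and 0.31 and 0.27 in mural cells. Whether the unlabelled genotype or the depth of these libraries goes with these gaps was not tested.

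Fibroblasts showed the widest diet values on the fewest cells. They numbered 10 and 23 cells in NC and 18 and 78 cells in HFpEF libraries. Col4a1 had 1248 and 1005 CPM in NC, against 578 and 775 CPM in HFpEF, lower in both HFpEF libraries, with a log2 fold change of -0.71 (95% interval -1.38 to -0.04, unadjusted p = 0.039, adjusted p = 0.999). Lama4 had 368 and 425 CPM in NC, against 212 and 265 CPM in HFpEF (-0.71), and Lamb1 had 539 and 638 CPM in NC, against 269.5 and 436.5 CPM in HFpEF (-0.69), each also lower in both. Col15a1 went the other way, with 328 and 477 CPM in NC, against 616 and 590.1 CPM in HFpEF (0.54, interval -0.25 to 1.33). None was called, and edgeR called 0 of 1895 genes in fibroblasts, with 86 at an unadjusted p under 0.05, and DESeq2 called 0. The diets did not overlap for 6 of the 9 genes, against 34.0% of all genes tested. Endothelial markers summed to 617 and 492 CPM in NC, against 404 and 1093 CPM in HFpEF fibroblasts. In fibroblasts without such UMIs Col4a1 read 1422 and 832 CPM in NC, against 571.5 and 724 CPM in HFpEF, still without overlap. Lama4, Lamb1, Lamc1 and Col15a1 also kept their direction without overlap there, and Sparc did not. These cells, 7 and 17 in NC and 15 and 46 in HFpEF, are part of the fibroblasts above. HFpEF library 1 held 6 UMIs of Lama4 and 9 of Lamb1 in them. The share of all genes without overlap was not computed for these cells. Sparc read 2089 and 2164 CPM in NC, against 1502 and 1959 CPM in HFpEF, in all fibroblasts. In those without endothelial UMIs it read 1852 and 1703 CPM in NC, against 1857.5 and 2559 CPM in HFpEF. There HFpEF library 1 nearly equalled NC library 1, and HFpEF library 2 was higher. In gated fibroblasts without endothelial UMIs Sparc read 1917 and 1645 CPM in NC, against 1080 and 1851 CPM in HFpEF, which overlapped.

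The change with diet was not shown to differ between classes. In a joint fit of capillary, artery and vein ECs and mural cells with the library as a block, no basement membrane gene was called for artery against capillary ECs (0.198% of all genes were), for vein against capillary ECs (0.0540%) or for mural cells against capillary ECs (0.504%). The lowest unadjusted p was that of Col4a1 in vein ECs, whose change was lower than in capillary ECs by -0.25 on the log2 scale (95% interval -0.46 to -0.05, unadjusted p = 0.017, adjusted p = 0.75 by edgeR). Of the 10 genes, 9 had a lower change in vein than in capillary ECs, with a median of -0.20, against -0.02 for all genes. Both changes come from the same libraries, and the 10 genes share the differences between these libraries.

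Within capillary ECs, one subcluster stood out for nearly every gene. It held 2106 cells and was led by Pgf, Ccl2, Apln, Cxcl2 and Cxcl10, ligands known from angiogenic and activated endothelium. The inflammatory cytokine gene Tnf was also among its leading genes. This subcluster had the highest mean level of all 10 genes among the 6 subclusters, in all 4 libraries for 8 of them. Clusters were made from the expression of the same cells, so these values are a description. Col15a1 read 81.3 and 108 CPM there in NC and 106 and 99.5 CPM in HFpEF, against 12.0 and 20.7 CPM in NC, against 9.998 and 29.9 CPM in HFpEF in the Cyp1a1 subcluster, a ratio of means of 5.44. Nid2 had 73.0 and 99.2 CPM in NC, against 89.7 and 80.3 CPM in HFpEF, 3.67 times the lowest subcluster. Sparc had 3188 and 2968 CPM in NC, against 2277.5 and 2492 CPM in HFpEF (1.83 times), Col4a1 had 1942 and 1794 CPM in NC, against 1456.5 and 1877 CPM in HFpEF (1.79 times), and Lamc1 had a ratio of 1.86. Nid1 hardly varied (1.14 times) and was highest there in 2 libraries only. The subcluster held 5.90% and 7.36% of capillary ECs in NC and 8.93% and 12.4% in HFpEF, shares that were not tested.

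**Figure D5:**
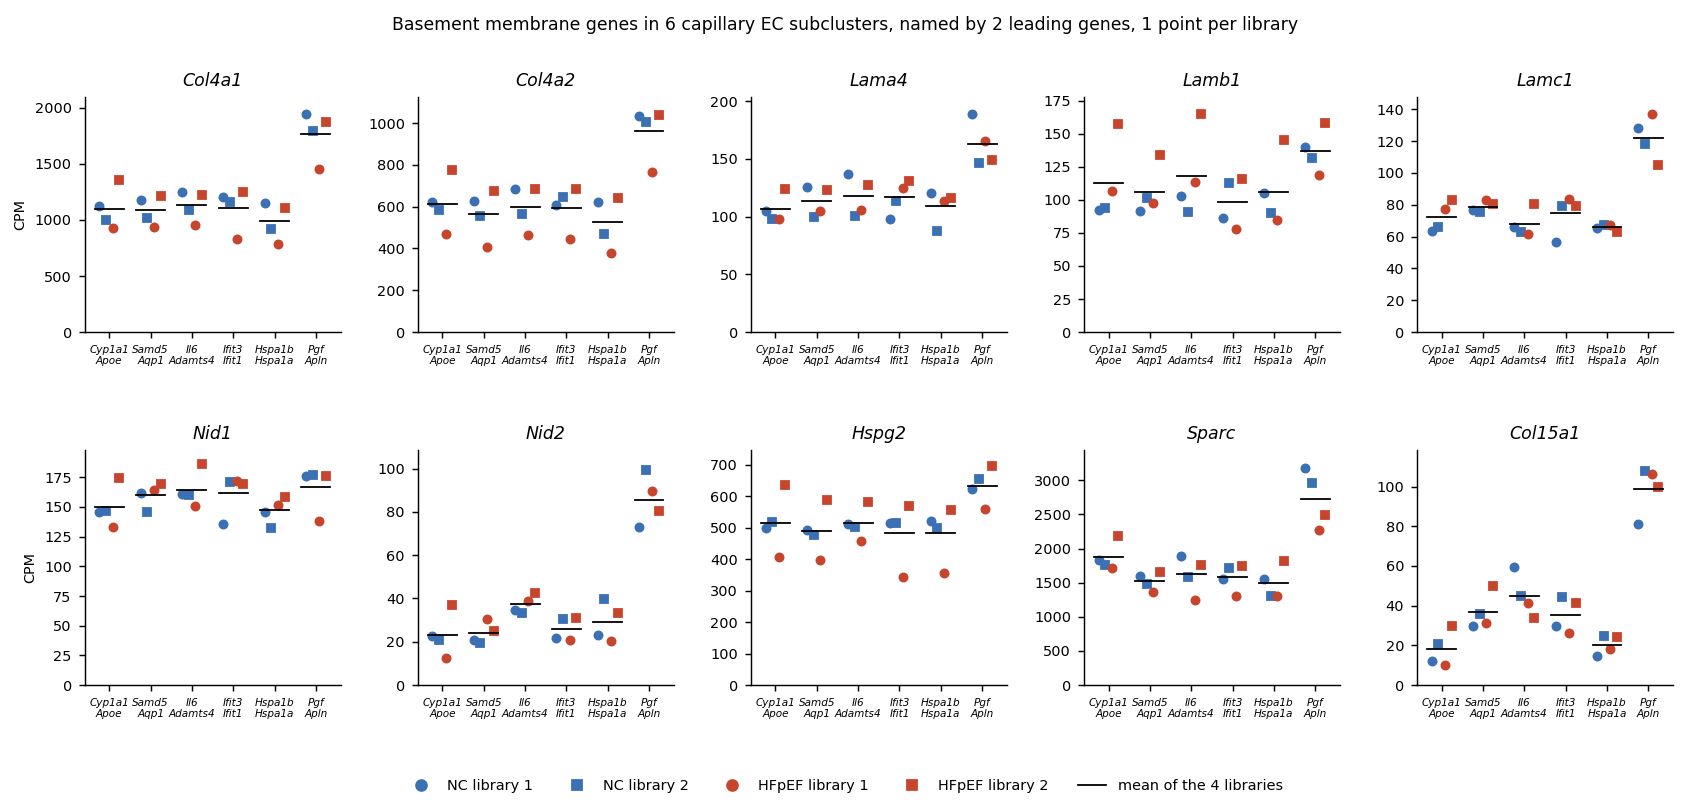
Level (CPM, linear axis from 0) of each basement membrane gene in 6 subclusters of capillary ECs, named by 2 of their leading genes, 1 point per library with the mean as a bar. The Pgf/Apln subcluster has the highest bar in every panel, by the widest margin for Col15a1 (98.8 CPM) and Nid2 (85.5 CPM), and by the narrowest for Nid1.

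Across the 20 sums of 5 classes in 4 libraries, the genes formed loose groups. This is a description, since points of a library share depth and those of a class share cells. Nid1 and Lamc1 had the highest correlation of the 45 pairs (Pearson's r = 0.97 on log2 CPM with 10 CPM added), followed by Col15a1 and Nid1 (0.96), Col4a1 and Col4a2 (0.91) and Col15a1 and Lama4 (0.91). Fibroblast means stood far from the rest, at 539 CPM of Lamc1, against 60.5 to 90.6 CPM in the other classes. For Nid1 they were 693 CPM, against 115 to 158 CPM. Outside fibroblasts, Lamc1 was highest in mural cells and Nid1 in vein ECs. Correlations without fibroblasts were not computed. Col4a2 had r between -0.16 and -0.01 with Nid1, Lamc1, Col15a1 and Lama4. Of 8396 genes with a mean of at least 10 CPM, the non-members most like the mean profile were Slco2b1 (0.93), Vwa1 (0.93), Meox1 (0.92), Nav1 (0.90) and Ctsl (0.88). Vwa1 encodes a perlecan-binding protein of the basement membrane, Slco2b1 an organic anion transporter, Meox1 a transcription factor, Nav1 a microtubule-associated protein and Ctsl a lysosomal protease. These genes were picked for their likeness over the same sums, so their order of classes is no separate result. Each had its highest mean level in fibroblasts and its second highest in capillary ECs.

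Genes of 3 wider lists around the basement membrane gave no diet call in any of the 5 classes, where 0% to 0.781% of all genes tested were called. Of 29 other basement membrane proteins, 18 were tested in capillary ECs, as were 21 of 23 genes of collagen modification, secretion and crosslinking and 13 of 16 receptor genes. Their median log2 fold changes were -0.03, 0.02 and -0.05. Genes are named here by size of fold change, among those with at least 10 CPM and no overlap of the diets. Lack of overlap was thus a condition. Among these, P4ha1, a subunit of the prolyl hydroxylase that stabilizes collagen, had the largest value. It had 60.2 and 49.7 CPM in NC, against 86.2 and 79.3 CPM in HFpEF (0.59 ± 0.13, adjusted p = 0.079 by edgeR). The collagen chaperone gene Serpinh1 followed the same direction (0.39, adjusted p = 0.20). Lamb2, the other common laminin beta chain, had 122 and 96.5 CPM in NC, against 77.4 and 74.6 CPM in HFpEF (-0.53 ± 0.13, adjusted p = 0.095). Bcam, a receptor for laminin alpha 5, had -0.48 (adjusted p = 0.10), Itgb5 -0.39, Tinagl1 -0.36, Egfl7 -0.31, Ppib -0.28, Colgalt1 -0.21 and Colgalt2 0.19. The diets did not overlap for 28 of the 52 genes of these lists that were tested (53.8%), against 52.5% of all genes. Of the 32 with at least 10 CPM it was 17 (53.1%), against 57.4% of all genes at that level.

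The same lists were compared between classes, and their counts stand against the shares of all genes called, which were 15.7% higher and 14.7% lower in artery ECs, 6.27% and 6.00% in vein ECs, 24.4% and 22.8% in mural cells and 11.0% and 15.3% in fibroblasts. In artery ECs, 12 of 16 tested other basement membrane genes were higher than in capillary ECs and 4 lower, against 0 and 9 of the 10 genes above. The genes named here were chosen after their values were seen. Those higher in artery ECs included Npnt (6.70), Col18a1 (4.31), Ntn4 (3.86) and Lama3 (2.88 on the log2 scale). In vein ECs 5 of 12 were higher and 3 lower. In mural cells 13 of 19 were higher and 5 lower, with Lama2 (7.23), Col4a5 (6.61), Ntn4 (6.11) and Col18a1 (4.04) among them. Lama2 and Col4a5 encode the alpha chain of muscle laminin and a further type IV collagen chain. Of the receptors, 7 of 13 were higher and 2 lower in artery ECs, 5 of 10 higher and 3 lower in vein ECs, 9 of 14 higher and 1 lower in mural cells, and 4 of 10 higher and 3 lower in fibroblasts. The laminin-binding integrin gene Itga7 was higher in mural cells (8.52) and Itga6 lower (-1.52). In fibroblasts 8 of 16 other basement membrane genes were higher, led by Smoc2 (12.1) and Lama2 (10.3), and 5 were lower, among them Egfl7 (-4.17) and Tinagl1 (-3.60). Of the collagen enzymes, 9 of 21 were higher in fibroblasts, with Loxl1 (12.7) and Lox (7.22) the highest, and 2 lower. In artery ECs 5 of 20 collagen enzymes were higher and 5 lower, in vein ECs 5 and 1, and in mural cells 7 and 7. These are fitted values, and those of genes with few UMIs in capillary ECs depend on the prior count of the fit.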

How the data were processed

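RFP-positive left ventricular cells of 4 mouse libraries (2 NC, 2 HFpEF) were profiled. Per the methods, the authors trimmed reads with fastp, counted UMIs with Cell Ranger 5.0.1 (mm10, Ensembl 100), down-sampled libraries by mapped barcoded reads per cell and deposited raw UMI counts per gene and cell. The deposited tables still held cells that fail the authors' filter (over 200 genes, under 20% mitochondrial UMIs), which was applied here. Totals were 30387717, 31517933, 11163876 and 48003732 UMIs. Depth limits genes with few UMIs.

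Cells were clustered on 2000 variable genes and 10 components, without any gene of the lists (Python 3.11.15, scikit-learn 1.9.0). UMIs were summed per library and class. edgeR 4.0.16 (R 4.3.3; TMM, filterByExpr, quasi-likelihood test, Benjamini-Hochberg over all genes) compared diets in 2 against 2 libraries, and cell-by-cell marker gates with the library as a block compared classes. DESeq2 1.42.0, other scalings and filters and left-out libraries were alternatives. Scripts were tested on simulated data. No doublet caller was run. The 10 genes and the lists were chosen with earlier results of these data known. All 10 are named, with the 10 list genes of the largest fold change without overlap in capillary ECs and the 5 most correlated genes. Deviations of same-numbered libraries had correlations of -0.01 to 0.13 across genes. Such values cannot show whether the numbers stand for a shared factor, such as the unlabelled genotype.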

Additional observations from a re-analysis of the deposited data

Results flagged for a closer look

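Lamc1 stood out because its diets did not overlap in 4 classes and pointed in opposite directions. The log2 fold change, HFpEF over NC, was 0.11 in capillary ECs and 0.33 in artery ECs, higher in both HFpEF libraries, and -0.13 in vein ECs and -0.24 in fibroblasts, lower in both. None of these was called by edgeR. The change in vein ECs minus that in capillary ECs was -0.24 (adjusted p = 0.93) and that in artery ECs minus capillary ECs 0.22 (adjusted p = 0.92), and the difference between fibroblasts and capillary ECs was not tested. Diets did not overlap for 34.0% to 52.5% of all genes in these classes. With 2 libraries a diet, no library could be tested as an outlier.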

How the results depend on the processing

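No basement membrane gene was called with diet under any alternative that was run, and the smallest adjusted p was 0.068 (Nid2, capillary ECs, hemoglobin-rich cells kept). Values near 0 changed sign. In capillary ECs Col4a1 and Hspg2 were 0.03 with hemoglobin-rich cells kept, and Hspg2 was 0.01 in cells gated one by one. With 1 library left out in turn, capillary values ran from -0.29 to 0.17 (Col4a1), -0.46 to 0.20 (Col4a2), -0.04 to 0.22 (Lama4), -0.0043 to 0.15 (Nid1), -0.31 to 0.22 (Hspg2), -0.25 to 0.10 (Sparc), -0.09 to 0.33 (Col15a1), 0.01 to 0.59 (Lamb1) and 0.10 to 0.52 (Nid2). Col15a1 in vein ECs ran from -0.23 to 0.91 and Lamb1 in mural cells from 0.03 to 0.51. Between classes, Nid2 in artery minus capillary ECs ran from -0.23 to 0.04 and Nid1 in vein minus capillary ECs from -0.18 to 0.08, with -0.10 when classes came from clusters. The genes higher in capillary ECs than in fibroblasts in all 4 libraries numbered 1 in clusters and 2 in cells gated one by one. The cause of these shifts was not tested.

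Counts over all genes moved more. The 53 calls of capillary ECs became 30 with library size alone, 357 with DESeq2, 710 without a low-count filter, 290 after thinning, 222 with hemoglobin-rich cells, 1 in gated cells and 2 to 133 with 1 library left out. They became 3 with unnamed ECs counted as capillary, chosen after seeing the data. The 51 calls of artery ECs became 21, 29, 273 and, with hemoglobin-rich cells, 22 (2 to 258 with 1 library left out). The 69 of vein ECs became 35, 20 and 179, 14 after thinning and 16 in gated cells (24 to 170). The 51 of mural cells became 14 with DESeq2, 180 without the filter, 3 after thinning, 26 in gated cells, 26 with hemoglobin-rich cells and 0 in cells without endothelial UMIs (18 to 140). Fibroblasts went from 0 to 15 without the filter and 4 in gated cells (0 to 65). Vein minus capillary calls went from 1236 to 2714 with clusters, and mural minus capillary calls from 5226 to 3382 in gated mural cells without endothelial UMIs, an alternative also chosen after seeing the data. With 1 library left out, the interaction calls of artery (22), vein (6) and mural cells (56) ran from 0 to 48, 2 to 15 and 14 to 68. Whether the library numbers pair the samples is not known. With library number as a replicate block, 0 of the genes were called in every class, and calls over all genes went from 53 to 58, 51 to 74, 69 to 148, 51 to 181 and 0 to 0.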

Other observations

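Smaller groups of ECs, not compared above, held these genes at other levels. Proliferating ECs (162 cells) had 1666 and 1310 CPM of Col4a1 in NC, against 2485 and 1952 CPM in HFpEF libraries, and 2865 and 2776 CPM of Sparc in NC, against 3005.5 and 2524 CPM in HFpEF. Endocardial ECs (176 cells) had 145 and 147 CPM of Col4a1 in NC, against 285 and 284 CPM in HFpEF. Their Nid2 level was 50.6 and 98.2 CPM in NC, against 17.8 and 29.7 CPM in HFpEF, on few UMIs. Lymphatic ECs (93 cells) had 309 and 361 CPM of Lama4 in NC, against 477 and 338 CPM in HFpEF, while Sparc stood at 459 and 279 CPM in NC, against 305 and 427 CPM in HFpEF. These values were not tested.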
